A study of Mus musculus with 6 samples.

Results

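The genes described here encode the proteasome and the enzymes that hand ubiquitin to its targets. They were chosen by name: each array row with exactly 1 annotated gene symbol that begins with Psma, Psmb, Psmc, Psmd, Psme or Ube2, without the immunoproteasome subunits Psmb8 and Psmb9. The rule found 61 genes on 80 probe sets, out of 8251 genes with a row of their own, and the probe set with the highest mean intensity stood for each gene. By role they were 15 subunits of the 20S core, 9 of the base and 8 of the lid of the 19S cap, 3 chaperones of cap assembly, 3 proteasome activators, 21 E2 enzymes, and 2 genes that match the prefixes but encode no subunit (Psmc3ip and Psme3ip1). Psme2 shares its probe set with Psme2b in the annotation and is therefore not among them.

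The samples were spinal cords of mice of 3 genotypes at 2 ages, with 1 array for each genotype and age. Nontransgenic mice had the strain label B6SJL. WT-SOD1 mice carried wild-type SOD1, with a strain label that names B6SJL at 75 days and no strain label at 110 days. SOD1 is a superoxide dismutase. In G93A-SOD1 mice the transgene had the G93A mutation, which causes an inherited form of amyotrophic lateral sclerosis, and the strain labels read B6SJL-G93A-SOD1 at 75 days and B6SJL-G93A-SOD1H at 110 days. Per the series text, G93A-SOD1 mice had no symptoms at 75 days and trembled and were partly paralysed at 110 days, while the other mice were free of disease at both ages. Each RNA came from 4 spinal cords, poly(A) RNA was labelled, and each array was hybridised once. The promoter of the transgenes, the sex of the mice and the cell types that express the transgenes are not given in the labels. Whole cord RNA was measured, so fewer cells of a type and less RNA per cell cannot be told apart.

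The proteasome is the main protease for damaged and short-lived proteins of the cytosol and nucleus. Ubiquitin is activated by an E1 enzyme, passed to an E2 enzyme, and attached to the substrate with the help of a ligase. The 19S cap then recognises the ubiquitin chain, removes it and threads the substrate into the 20S core, whose beta subunits cut it. Activators such as PA28 can replace the cap at the ends of the core. Ubiquitin-positive inclusions in motor neurons are a hallmark of amyotrophic lateral sclerosis and of mutant SOD1 mice.

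The arrays carried 12422 probe sets for genes, and their median intensities lay between 77.67 and 80.92. Only probe sets with at least 1 array above the pooled median of 79.66 were tested, 6737 in all, which represent 5199 named genes. Spinal cord Hox genes were above the detection floor of 31 on every array, with a summed intensity between 1916 and 2248 over 10 genes. The mouse Sod1 probe set read 1037 and 1498 in nontransgenic, 1583 and 1906 in WT-SOD1 and 1738 and 1716 in G93A-SOD1 cord at 75 and 110 days, and was not designed for the transgene, so it does not check the labels. The WT-SOD1 array at 75 days stood apart with a summed intensity of 4 pituitary hormone genes of 11074, against 472 to 547 on the others. The nontransgenic array at 75 days and the WT-SOD1 array at 110 days had more signal from 9 cerebellar genes (6020 and 6536, against 3321 to 4679) and from the bacterial spike-in controls (631.1 and 833.7, against 351.4 to 456.6). Of 10 microglial genes, 9 passed the test as higher in G93A-SOD1 cord at 110 days, and their summed intensity was 7228 there against 1549 to 1840 on the other arrays. The summed intensity of 7 neuronal genes was 5668 on that array, 6464 in G93A-SOD1 cord at 75 days and 7106 to 8172 in disease-free cord. The part of these differences in the results below was not tested.

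The first comparison asked which proteasome and E2 genes differed in G93A-SOD1 cord with paralysis. Nearly all of them lay close to their disease-free level. At 110 days the G93A-SOD1 array was set against the nontransgenic and WT-SOD1 arrays of that age, its 2 disease-free arrays, on log2 intensities. Of 61 genes, 54 were bright enough to be tested, and 0 passed the limma test with Benjamini-Hochberg adjustment over all 6737 probe sets, of which 1.51% passed. The median log2 difference of the 54 genes was -0.09, against -0.02 for all tested genes, and 41 of the 54 lay below 0, against 55.7% of all genes. With quantile normalization 35 of 54 lay below 0, against 50.4% of genes, and the median was -0.04. Over all alternatives the median ran from -0.15 to -0.00. Relative to the mean of the 4 disease-free arrays, the members' median at 110 days was 0.08 in nontransgenic, -0.03 in WT-SOD1 and -0.05 in G93A-SOD1 cord. The same medians over all genes were 0.01, -0.01 and -0.03. The differences of the 54 members ran from -0.33 to 0.61 with a standard deviation of 0.15, against 0.29 over all genes. At an unadjusted p under 0.05, 1 of 54 members stood out, against 10.3% of probe sets. The 95% interval of the difference, not adjusted for the number of genes, stayed inside a 2-fold change either way for 54 of 54 members, against 95.4% of all genes, and inside a 1.5-fold change for 44 of 54, against 71.1%.

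The 20S core is a barrel of alpha rings that control entry and beta rings that hold the active sites. All 15 core genes were tested, none passed, and their median log2 difference at 110 days was -0.05, with 11 of 15 below 0; with quantile normalization it was 0.01, with 7 of 15 below 0. The catalytic subunits are Psmb5, Psmb6 and Psmb7, which cut after hydrophobic, acidic and basic residues. The Psmb5 intensity was 280 and 339 in nontransgenic cord, 300 and 311 in WT-SOD1 cord and 309 and 274 in G93A-SOD1 cord, at 75 and 110 days each. The array of paralysed mice was the lowest of the 6, by a small margin over the nontransgenic array at 75 days. The log2 difference of Psmb5 at 110 days was -0.25 ± 0.14 (moderated SE, 1 array against 2) with a limma adjusted p of 0.665. A second Psmb5 probe set read 155 and 171 in disease-free and 157 in G93A-SOD1 cord at 110 days, within the disease-free range.

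Psmb6 read 365 and 405 in nontransgenic, 380 and 386 in WT-SOD1 and 386 and 380 in G93A-SOD1 cord at 75 and 110 days. Both G93A-SOD1 arrays lay inside the disease-free range, and the log2 difference at 110 days was -0.06 ± 0.13. Psmb7 read 416 and 425 in nontransgenic, 436 and 423 in WT-SOD1 and 425 and 383 in G93A-SOD1 cord. The array of paralysed mice was again the lowest of the 6, with a log2 difference of -0.15 ± 0.13 and an adjusted p of 0.888. The interferon-inducible subunit Psmb10, which replaces Psmb7 in the immunoproteasome, read 330 and 325 in nontransgenic, 334 and 351 in WT-SOD1 and 299 and 353 in G93A-SOD1 cord. Its log2 difference at 110 days was 0.06 ± 0.13, with the array of paralysed mice just above the highest disease-free array. The excluded immunoproteasome subunit Psmb8 read 101 in G93A-SOD1 cord at 110 days against 45.3 and 53.7 in disease-free cord of that age and passed the test (log2 difference 1.04 ± 0.16, limma adjusted p 0.0248). Psmb9 read 71.9 there against 52.0 and 59.6, and was too dim to be tested.

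Among the other core subunits, Psma7 had the highest difference of the alpha ring at 0.11 ± 0.13 and Psma1 the lowest at -0.14 ± 0.14. Psmb2 had the highest difference of the beta ring at 0.17 ± 0.14. The 2 tested probe sets of Psmb1 differed in sign, at -0.09 and 0.11, each by less than its SE of 0.13 and 0.14.

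The core genes carry promoters in which a short element, TGACNNNGC, can be looked for. It is the core of the antioxidant response element, the site of the factors Nfe2l1 and Nfe2l2. Of these, Nfe2l1 raises proteasome genes together when proteasome capacity is short. RefSeq promoter windows (GRCm38.p6, 250 bases before to 50 after the start of transcription) were searched on both strands. There were 59 windows for 50 of the 61 genes, and 8 of them (13.6%) held the element, against 12.4% of all 32851 windows. The CCAAT box was present in 32.2% of the members' windows against 37.4% of all, and GAAA repeated after any 2 bases, the pattern read by interferon regulatory factors, in 6.78% against 3.44%. For the 28 windows of core and cap subunits the shares were 14.3%, 35.7% and 7.14%, and for the 22 windows of E2 enzymes 9.09%, 22.7% and 0.0%. A match is a string of letters and not evidence of binding. The matches in the catalytic subunits Psmb5 and Psmb6 are shown as examples of the element in genes of the active sites; capitals mark the element. The Psmb5 window lies at chr14:54617996-54618095 on the minus strand, 47 bases before the start of transcription at the first base of the element. The Psmb6 window lies at chr11:70525327-70525356 on the plus strand, inside the annotated gene and directly before one of its transcript starts.
Psmb5: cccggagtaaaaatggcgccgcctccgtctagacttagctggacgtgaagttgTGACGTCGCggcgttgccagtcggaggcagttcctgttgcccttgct
Psmb6: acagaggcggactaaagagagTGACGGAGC

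The base of the 19S cap is a ring of ATPases that unfolds the substrate, with scaffold and ubiquitin-receptor subunits. Of its 9 genes, 8 were tested and none passed. All 8 differences at 110 days lay below 0 (7 of 8 with quantile normalization), with a median of -0.09 and a range from -0.16 to -0.02, each close to or below its SE. Of the ATPases, Psmc2 had the lowest value at -0.16 ± 0.16 and Psmc6 the highest at -0.02 ± 0.15. The sign of Psmc6 turned with the nontransgenic array at 110 days left out (0.09) and with quantile normalization (0.04). The scaffold subunit Psmd1 read 647 and 758 in nontransgenic, 741 and 697 in WT-SOD1 and 714 and 675 in G93A-SOD1 cord, so that both G93A-SOD1 arrays lay inside the disease-free range. Its log2 difference at 110 days was -0.11 ± 0.15, and that of the ubiquitin receptor Psmd4 was -0.06 ± 0.14. Psmc4 lay under the floor on every array (15.7 to 17.7) and was not tested.

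The lid of the cap holds the deubiquitinase that releases ubiquitin before the substrate enters the core. All 8 lid genes were tested and none passed. The median difference at 110 days was -0.13, with 5 of 8 below 0. Relative to the mean of the 4 disease-free arrays, the lid median at 110 days was 0.20 in nontransgenic, -0.05 in WT-SOD1 and -0.04 in G93A-SOD1 cord. That deubiquitinase, Psmd14, read 265 and 315 in nontransgenic, 237 and 272 in WT-SOD1 and 211 and 259 in G93A-SOD1 cord at 75 and 110 days. The G93A-SOD1 array at 75 days was the lowest of the 6, and the one at 110 days lay inside the disease-free range. The log2 difference of Psmd14 at 110 days was -0.18 ± 0.15. The lid scaffold subunits Psmd6 and Psmd3 had the lowest and the highest value at -0.21 ± 0.15 and 0.14 ± 0.14, and Psmd8 was at 0.06 ± 0.13.

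The lid subunit Psmd11 varied most among the disease-free arrays and cannot be read in 1 direction. Its representative probe set read 973 and 1561 in nontransgenic, 1066 and 817 in WT-SOD1 and 637 and 1010 in G93A-SOD1 cord at 75 and 110 days. The 2 disease-free arrays at 110 days were thus the highest and the lowest of the 4, with the G93A-SOD1 array between them. The log2 difference at 110 days was -0.16 ± 0.33. It was 0.31 without the nontransgenic array of that age, and -0.63 without the WT-SOD1 array. The first chaperone of cap assembly, Psmd5, had a difference of -0.15 ± 0.13, the second, Psmd9, of 0.03 ± 0.14, and Psmd10 was too dim to be tested (35.3 to 47.4).

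**Figure D1:**
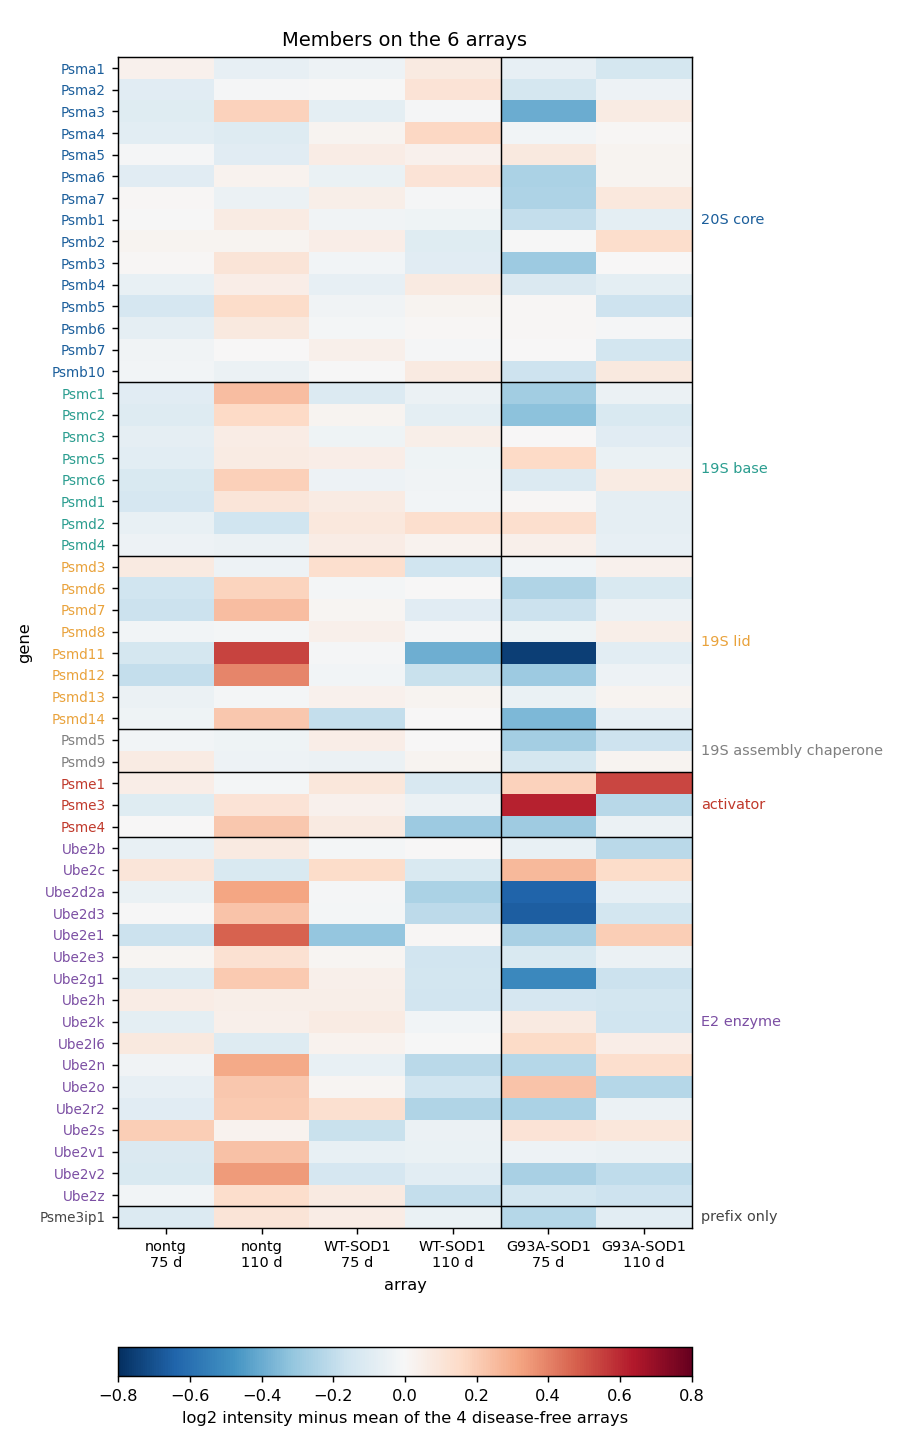
Heat map of the 54 tested genes (rows, grouped by role) on the 6 arrays (columns; nontg is nontransgenic), with colour for log2 intensity minus the mean of the 4 disease-free arrays. Psme1 in G93A-SOD1 cord at 110 days and Psme3 at 75 days are dark red, Psmd11, Ube2d2a and Ube2d3 at 75 days dark blue, and many rows are red on the nontransgenic array at 110 days.

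The activators open the gate of the core without ubiquitin, and one of them had the largest difference of all members at 110 days. Psme1 encodes the alpha subunit of PA28, an interferon-inducible ring that favours the cutting of peptides for antigen presentation. Its intensity was 91.9 and 87.7 in nontransgenic, 94.7 and 81.3 in WT-SOD1 and 101 and 129 in G93A-SOD1 cord at 75 and 110 days. Both G93A-SOD1 arrays lay above all 4 disease-free arrays, the one at 110 days by 1.36-fold over the highest. The log2 difference at 110 days was 0.61 ± 0.13, a 1.52-fold higher level with a 95% interval of 1.22 to 1.90, and its adjusted p of 0.111 missed the threshold. Over all alternatives the difference of Psme1 ran from 0.55 to 0.66. When either disease-free array at 110 days is left out, the error rests on the 2 disease-free arrays at 75 days alone. No p-value is given for those fits. Microglia are known to express interferon-inducible genes, and 9 of 10 microglial genes were higher on the same array, as given above, with none at the floor on any array. Their part in the Psme1 difference was not tested. The second Psme1 probe set lay under the floor on every array.

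Psme1 lies at chromosome 14, 55578494 to 55581527, of GRCm38.p6. Its promoter is shown because it holds the interferon-type motif, on the strand opposite to the gene and beginning 9 bases after the first transcribed base; capitals mark it in the window chr14:55578484-55578513 on the plus strand.
Psme1: tgcaggtttcgagctgtgcTTTCGCTTTCc

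The nuclear activator Psme3, also called PA28 gamma, is not interferon-inducible and showed another pattern. Its intensity was 169 and 195 in nontransgenic, 185 and 175 in WT-SOD1 and 277 and 155 in G93A-SOD1 cord at 75 and 110 days. The G93A-SOD1 array was thus the highest of the 6 at 75 days and the lowest at 110 days. The log2 difference was 0.65 ± 0.15 at 75 days (1.57-fold, 95% interval 1.24 to 1.99, limma adjusted p 0.444) and -0.25 ± 0.15 at 110 days (adjusted p 0.665). The change between the ages was -0.90 ± 0.21 with an adjusted p of 0.248. Over the alternatives the difference at 75 days ran from 0.58 to 0.72 and the change from -0.98 to -0.82. The limma adjusted p of the change was 0.0456 with a term for the arrays with higher spike-in signal. That term falls on 1 disease-free array of each age, so it leaves the estimate of the change as it was. Only the error alters, with fewer residual degrees of freedom, so this p-value does not show that Psme3 changed. With 1 probe set and 1 array for each age, no second measurement of Psme3 in G93A-SOD1 cord exists here. The third activator, Psme4, read 76.2 and 88.3 in nontransgenic, 79.9 and 62.3 in WT-SOD1 and 62.4 and 73.7 in G93A-SOD1 cord. Its differences were -0.32 ± 0.21 at 75 days and -0.01 ± 0.21 at 110 days, and both G93A-SOD1 arrays lay inside the disease-free range.

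Psme3 lies at chromosome 11, 101316213 to 101323537. Its promoter window chr11:101316113-101316212 on the plus strand is shown because it holds a CCAAT box on the opposite strand, 14 bases before the start; capitals mark it.
Psme3: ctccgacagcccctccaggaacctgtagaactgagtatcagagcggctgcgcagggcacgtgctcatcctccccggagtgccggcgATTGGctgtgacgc

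The E2 enzymes choose, with the ligase, the substrate and the kind of chain. Of 21 E2 genes, 17 were tested and none passed at 110 days. Their median log2 difference was -0.10, with 13 of 17 below 0, against 55.7% of all genes. With quantile normalization it was -0.05, with 12 of 17 below 0, against 50.4%. Relative to the mean of the 4 disease-free arrays, the E2 median at 110 days was 0.21 in nontransgenic and -0.15 in WT-SOD1 cord. The G93A-SOD1 array lay between these 2 at -0.06. Ube2b, an E2 of DNA repair, read 311 and 341 in nontransgenic, 321 and 325 in WT-SOD1 and 311 and 279 in G93A-SOD1 cord. The array of paralysed mice was the lowest of the 6, and the log2 difference was -0.26 ± 0.13 with an adjusted p of 0.611. Ube2o, a large E2 that also acts as a ligase, had a difference of -0.25 ± 0.18 at 110 days and 0.25 ± 0.18 at 75 days. Its second tested probe set had differences of -0.24 and 0.36.

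Ube2c and Ube2s work in turn with the anaphase-promoting complex of dividing cells. Ube2c read 96.6 and 83.3 in nontransgenic, 100 and 83.1 in WT-SOD1 and 109 and 100 in G93A-SOD1 cord at 75 and 110 days. At 110 days the G93A-SOD1 array lay above both disease-free arrays of its age but level with the WT-SOD1 array at 75 days, and the difference of 0.27 ± 0.13 had an adjusted p of 0.575. Ube2s was at 0.10 ± 0.18, and at -0.02 with a WT-SOD1 genotype term in the fit. Ube2l6, the E2 of the interferon-induced modifier Isg15, was at 0.11 ± 0.13.

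Ube2v1 and Ube2v2 lack the catalytic cysteine and pair with Ube2n to build chains for signalling and DNA repair. Ube2v2 had the lowest difference of all members at 110 days. It read 71.6 and 98.5 in nontransgenic, 71.0 and 73.5 in WT-SOD1 and 65.0 and 67.6 in G93A-SOD1 cord. The nontransgenic array at 110 days stood alone as high, and the other 5 arrays lay between 65.0 and 73.5. The log2 difference was -0.33 ± 0.19 with a limma adjusted p of 0.665. It was -0.54 without the WT-SOD1 array at 110 days, which leaves the high nontransgenic array as the only one of its age. Ube2v1 was at -0.14 ± 0.16, and at 0.01 without the nontransgenic array at 110 days. Ube2n read 375 and 538 in disease-free and 478 in G93A-SOD1 cord at 110 days. Psme3ip1, a binding partner of Psme3 and no subunit, had a difference of -0.11 ± 0.15.

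**Figure D2:**
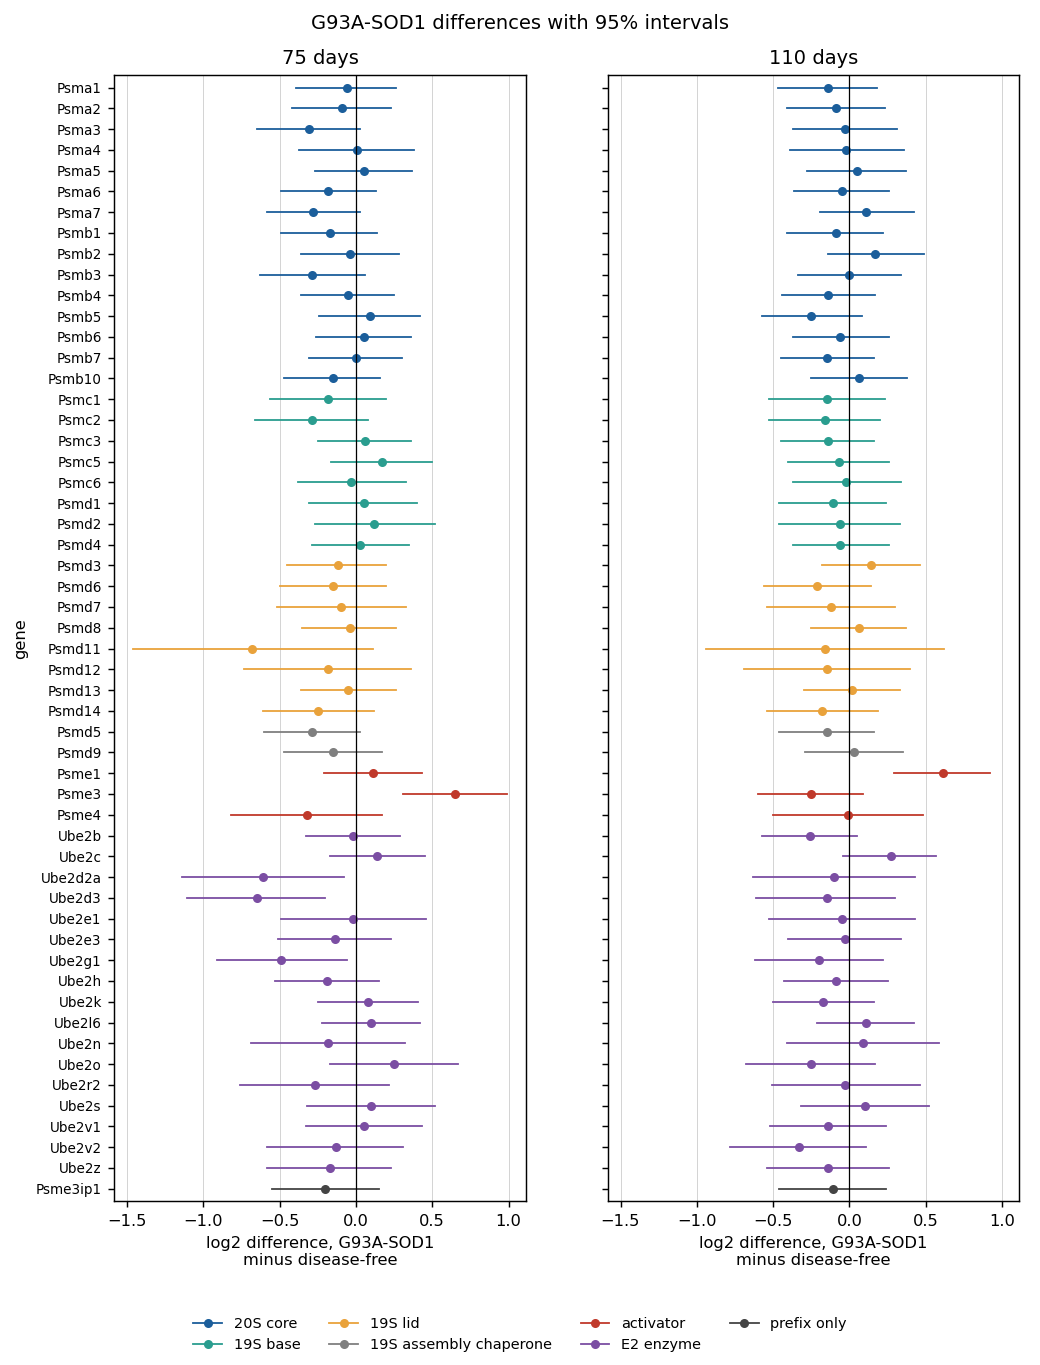
Log2 difference of the G93A-SOD1 array from the mean of the 2 disease-free arrays of its age (points, moderated limma estimates) with 95% intervals not adjusted for the number of genes (lines), for the 54 tested genes at 75 days (left) and 110 days (right), coloured by role. Most intervals cross 0; those of Psme1 at 110 days (0.61) and of Psme3 (0.65), Ube2d2a (-0.61), Ube2d3 (-0.65) and Ube2g1 (-0.49) at 75 days do not.

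The second comparison asked which genes differed in G93A-SOD1 cord before symptoms. At 75 days the spread of the members was wider than at 110 days, and no member passed the test. The count was 0 of 54 by limma, with 0.0% of all probe sets called, and 4 of 54 members at an unadjusted p under 0.05 (1 higher, 3 lower) against 9.86% of probe sets. The median log2 difference was -0.09, against -0.04 for all genes, with 37 of 54 below 0 against 57.6% of genes. With quantile normalization 31 of 54 lay below 0, against 47.8% of genes, and the median was -0.03. The standard deviation was 0.22, against 0.23 over all genes. The medians were -0.06 for the core, 0.04 for the base, -0.14 for the lid and -0.13 for the E2 enzymes. All 8 lid differences lay below 0, from -0.68 to -0.04, as they did with the arrays scaled to 1 median and with quantile normalization, and 3 of 8 base differences did. These counts use the representative probe sets, and the lid value of -0.68 is that of Psmd11, whose other 2 tested probe sets had differences of 0.52 and 0.40. Of the E2 differences 11 of 17 lay below 0, but 9 of 17 with the arrays scaled to 1 median and with quantile normalization, against 52.1% and 47.8% of genes.

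The lowest values at 75 days belonged to Psmd11 and to E2 enzymes of the Ube2d family, which work with a broad range of ligases. Ube2d3 read 486 and 570 in nontransgenic, 482 and 420 in WT-SOD1 and 308 and 440 in G93A-SOD1 cord at 75 and 110 days. The G93A-SOD1 array at 75 days was the lowest of the 6, 1.36-fold below the lowest disease-free array, and the one at 110 days lay inside the disease-free range. The log2 difference at 75 days was -0.65 ± 0.19 (0.636-fold, 95% interval 0.464 to 0.871, limma adjusted p 0.460). Ube2d2a read 437 and 563 in nontransgenic, 450 and 380 in WT-SOD1 and 290 and 433 in G93A-SOD1 cord. The G93A-SOD1 array was again the lowest of the 6 at 75 days and inside the disease-free range at 110 days. The difference of Ube2d2a at 75 days was -0.61 ± 0.22 with an adjusted p of 0.495. The proteins of these genes are nearly identical, and whether their probe sets share transcripts was not examined. The second probe sets of both genes have a suffix that marks possible cross-hybridisation. They had smaller differences at 75 days, -0.25 for Ube2d3 and -0.31 for Ube2d2a. The arrays at 110 days do not enter the differences at 75 days, so leaving out an array of that age is no check on them.

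Another E2 enzyme, Ube2g1, read 348 and 432 in nontransgenic, 385 and 338 in WT-SOD1 and 261 and 332 in G93A-SOD1 cord. Both G93A-SOD1 arrays were below all disease-free arrays, the one at 110 days only narrowly, and the difference at 75 days was -0.49 ± 0.18 with an adjusted p of 0.495. The G93A-SOD1 array at 75 days also had the highest ratio of 3′ to 5′ signal for the control gene Gapdh, 1.49 against 1.08 to 1.30 on the other arrays. Its beta-actin ratio of 2.0 lay inside the range of 1.69 to 2.39. For the transferrin receptor its ratio was the lowest, 3.21 against 3.67 to 4.36, so the controls did not point in the same direction. The part of RNA quality in these differences was not tested.

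Psmd11 had the lowest value at 75 days, and its probe sets contradicted each other. The representative probe set had a log2 difference of -0.68 ± 0.33 with a limma adjusted p of 0.543. A second probe set read 136 and 135 in disease-free and 193 in G93A-SOD1 cord at 75 days, a difference of 0.52 ± 0.13. The third probe set read 99.2 and 100 against 132, a difference of 0.40 ± 0.13. On both of these the G93A-SOD1 array at 75 days was the highest of the 6, and on the representative probe set it was the lowest. Psmd11 has no single direction in these data.

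**Figure D3:**
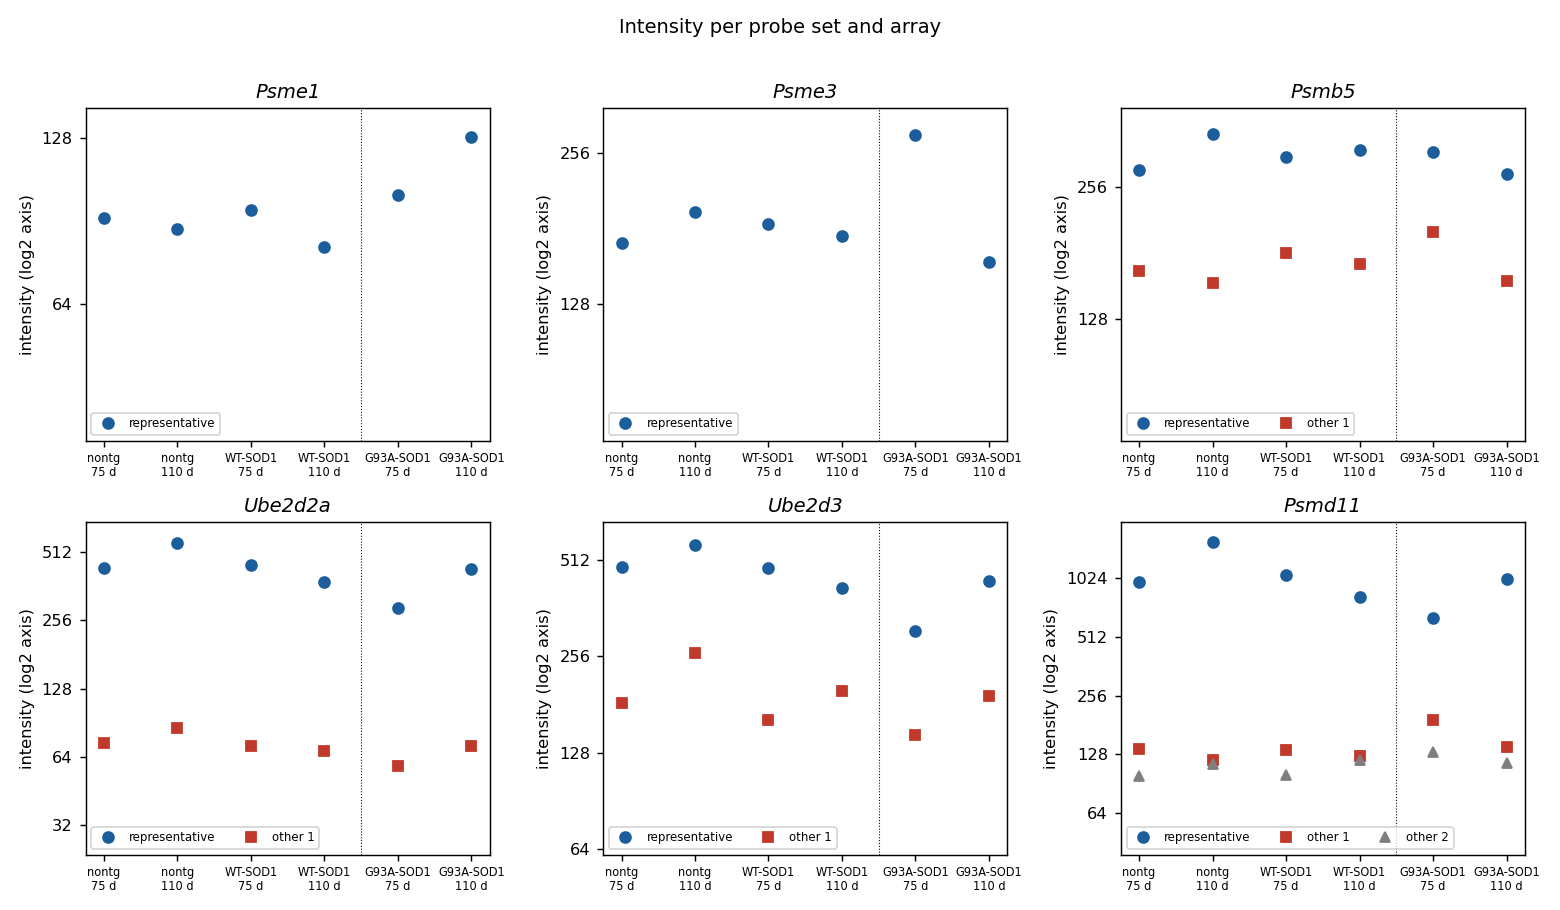
Intensity (log2 axis) of every tested probe set of 6 genes on the 6 arrays (nontg is nontransgenic), with disease-free arrays left and G93A-SOD1 arrays right of the dotted line; circles are the representative probe set, squares and triangles the others. The Psmd11 circles dip to 637 in G93A-SOD1 cord at 75 days, where the squares and triangles reach 193 and 132.

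Within the core, the lowest values at 75 days were those of Psma3, Psmb3 and Psma7 at -0.31 ± 0.14, -0.29 ± 0.14 and -0.28 ± 0.13. Psma7, an alpha-ring subunit, read 230 and 221 in nontransgenic, 237 and 227 in WT-SOD1 and 193 and 243 in G93A-SOD1 cord. Its G93A-SOD1 arrays were the lowest of the 6 at 75 days and the highest at 110 days. Psmb5 had a difference of 0.09 ± 0.14 at 75 days, Psmb6 of 0.05 ± 0.13, and Psmb7 of -0.00 ± 0.13, each within its SE on the representative probe set. The second Psmb5 probe set read 203 in G93A-SOD1 cord at 75 days, the highest of the 6 arrays against 155 to 181, a difference of 0.23 ± 0.14. Psmb10 was at -0.15 ± 0.13. In the base, Psmc5 had the highest value at 0.17 ± 0.14.

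The arrays were also counted with no model. At 75 days the G93A-SOD1 array lay below all 4 disease-free arrays for 27 of 54 members, against 34.5% of genes, and above all 4 for 9, against 23.5%. Those below included 7 of 8 lid genes and 9 of 15 core genes, with Psmd11 by its representative probe set. Of 17 E2 genes, 6 lay below and 4 above. At 110 days the array lay below all 4 for 15 members, against 26.7% of genes, above all 4 for 5, against 16.6%, and inside the range for 34. The count outside the disease-free range by more than 1.5-fold was 0 of 54 at both ages, against 2.04% of genes at 110 days and 0.577% at 75 days. On the representative probe sets all 8 lid genes were higher in G93A-SOD1 cord at 110 than at 75 days, with a median log2 difference of 0.13. The other 2 tested probe sets of Psmd11 were lower at 110 days, 139 against 193 and 116 against 132. Of all members, 34 of 54 were higher at 110 days, against 51.2% of genes.

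The third comparison asked whether the G93A-SOD1 difference changed between the ages. No member passed (0 of 54 by limma, with 0.416% of probe sets called), and 2 of 54 had an unadjusted p under 0.05, against 6.23% of probe sets. The median change was 0.04, against 0.01 for all genes, with 22 of 54 below 0, against 49.1% of genes, and the values ran from -0.90 for Psme3 to 0.52 for Psmd11 and Ube2d2a. Ube2d3 was at 0.50 and Ube2o at -0.50. These values are those of the representative probe sets. The second tested probe set was at 0.00 for Ube2d3, 0.21 for Ube2d2a and -0.60 for Ube2o. The other tested probe sets of Psmd11 were at -0.34 and -0.42, opposite in sign to its representative. Psmb5 had a change of -0.34 with an adjusted p of 0.961. Without the nontransgenic array at 110 days, the representative probe set of Psmd11 had a change of 0.98. These changes share their G93A-SOD1 and disease-free arrays with the differences at each age.

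The fourth comparison asked what age did in disease-free cord. No member passed (0 of 54 by limma, with 0.0148% of probe sets called), and 1 of 54 had an unadjusted p under 0.05, against 3.1% of probe sets. The median log2 difference of 110 against 75 days was 0.04, against -0.00 for all genes, with 19 of 54 below 0 (24 with quantile normalization), against 50.6% of genes (54.3%), and a range from -0.24 to 0.48. Ube2e1, an E2 of the Ube2e family, had the highest value at 0.48 ± 0.17. It read 96.9 and 152 in nontransgenic, 88.2 and 110 in WT-SOD1 and 91.4 and 125 in G93A-SOD1 cord at 75 and 110 days. The level at 110 days exceeded that at 75 days in each of the 3 genotypes. Ube2v2 was at 0.25 and Psmd14 at 0.22; the lowest values were those of Ube2c at -0.24, Psmd3 at -0.20 and Psme1 at -0.14.

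Age was also read within each disease-free genotype, from 1 array at each age and with no test. Nontransgenic cord was higher at 110 than at 75 days for 39 of 54 members, against 55.3% of genes, with a median of 0.13, and of 0.29 for the lid and 0.23 for the E2 enzymes. WT-SOD1 cord was higher at 110 days for 21 of 54, against 46.3% of genes, with a median of -0.05, and of -0.17 for the E2 enzymes. The nontransgenic array at 110 days was the highest disease-free array for 31 of 54 members, against 37.4% of genes, and for 12 of 17 E2 enzymes, and the lowest for 9, against 33.1%. The nontransgenic array at 75 days was the highest for 4 members, against 17.4% of genes, and the lowest for 21, against 24.1%. The WT-SOD1 array was the highest for 12 and the lowest for 7 at 75 days, against 22.1% and 15.8% of genes, and the highest for 7 and the lowest for 17 at 110 days, against 23.1% and 27.0%. The nontransgenic array at 110 days was also the array with the highest beta-actin ratio of 3′ to 5′ signal, 2.39 against 1.69 to 2.0. Its Gapdh and transferrin receptor ratios of 1.23 and 3.97 lay inside the range of the other arrays. The part of RNA quality in the levels was not tested. The difference between the genotypes' age effects was not tested, since each rests on 1 array for an age.

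The last comparison asked whether wild-type SOD1 alone went with a difference, with age as a term on the 4 disease-free arrays. No member passed (0 of 54 by limma, with 0.104% of probe sets called), and 1 of 54 had an unadjusted p under 0.05, against 1.17% of probe sets. The median log2 difference was -0.03, against 0.00 for all genes, with 33 of 54 below 0, against 49.3% of genes, and values from -0.40 for Psmd11 to 0.22 for Psmd2. The value of -0.40 is that of the representative probe set of Psmd11, whose other tested probe sets were at 0.03 and 0.04. Psma4, an alpha-ring subunit, was at 0.19 and Psma2 at 0.10. The E2 enzymes had a median of -0.12, with 14 of 17 below 0 (13 with quantile normalization), the lowest being Ube2e1 at -0.30 and Ube2n at -0.28. These E2 values rested on 110 days: WT-SOD1 cord was lower than nontransgenic cord for 16 of 17 E2 genes at that age, with a median of -0.33, and higher for 9 of 17 at 75 days, with a median of 0.04. Over all members, WT-SOD1 cord was higher for 39 of 54 at 75 days, against 56.3% of genes, and for 15 of 54 at 110 days, against 47.1%. The SE of each difference was 0.19.

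**Figure D4:**
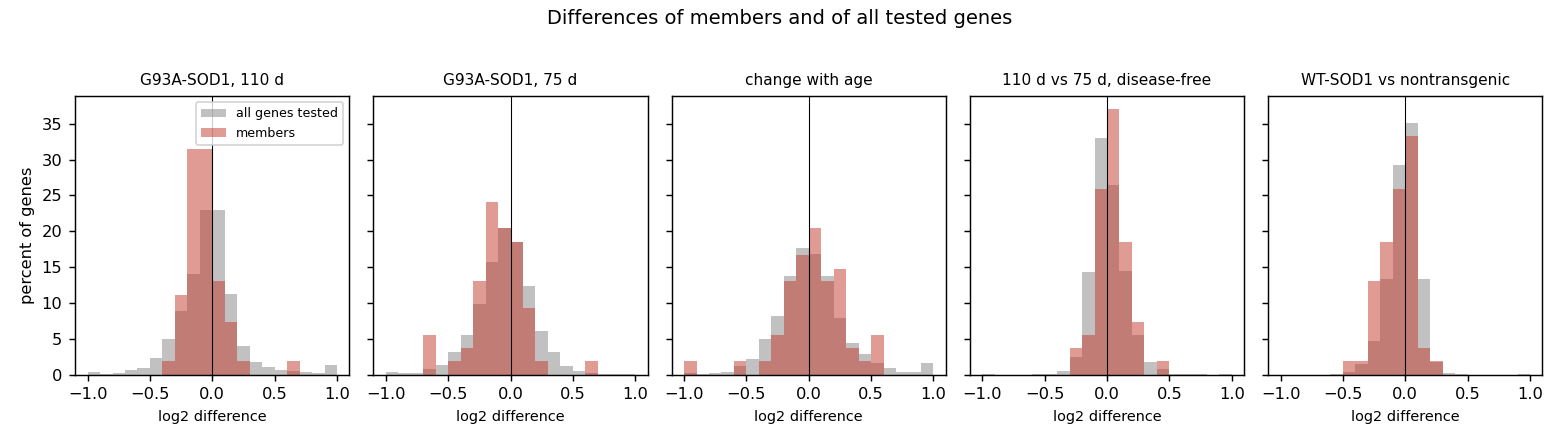
Percent of genes (y axis) by log2 difference (x axis, bins of 0.1) in the 5 comparisons, for the 54 tested members (red) and all 5199 tested genes (grey); the end bins also hold values beyond -1 and 1. The members' median was -0.09 in G93A-SOD1 cord at both ages, and their differences at 110 days (SD 0.15) were narrower than those of all genes (SD 0.29).

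The rest of the ubiquitin pathway was read from a list of E1 enzymes, ubiquitin-like precursors, ligases, deubiquitinases, shuttles and proteasome assembly and control genes. Of its 69 genes on the array, 58 were tested and 0 passed the limma test in any of the 5 comparisons. Their median log2 difference was -0.11 in G93A-SOD1 cord at 110 days, -0.15 at 75 days, 0.07 for the change, 0.01 for age and -0.03 for WT-SOD1. The medians at 110 days were -0.18 for 4 E1 genes, -0.00 for 4 precursors, -0.12 for 21 ligases, -0.13 for 16 deubiquitinases, -0.09 for 8 shuttles and adaptors and 0.02 for 5 assembly and control genes. At 75 days the shuttles and adaptors had the lowest median, -0.33.

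The highest value of the pathway list at 110 days was that of Nfe2l2, the antioxidant response factor. It read 105 and 108 in nontransgenic, 122 and 121 in WT-SOD1 and 114 and 188 in G93A-SOD1 cord at 75 and 110 days. The array of paralysed mice stood alone as high, with a log2 difference of 0.72 and an adjusted p of 0.106. The lowest value was that of the ligase subunit Fbxw7, with 190 and 206 in nontransgenic, 198 and 179 in WT-SOD1 and 178 and 131 in G93A-SOD1 cord, a difference of -0.55 with an adjusted p of 0.190. Further genes were chosen after their values were seen. The interferon-induced modifier Isg15 read 97.3 and 88.3, 102 and 92.1, and 104 and 146 in the same order, a difference of 0.69 with an adjusted p of 0.0674. The neuronal deubiquitinase Uchl1 was at -0.39 with an adjusted p of 0.422, the autophagy adaptor Sqstm1 at 0.04, and Nfe2l1, the factor that controls proteasome genes, at 0.02.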

How the data were processed

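Spinal cord poly(A) RNA was measured on 6 Affymetrix MG-U74Av2 arrays. The deposited file gives a linear intensity for each probe set on each array, as the authors processed it. Neither the probe summary nor the array scaling is stated (not given in the sources used here). Of 12488 rows, 66 were control probe sets and were left out of the tests. Intensities under the 25th percentile (31) were set to that value before log2 transformation. Probe sets with at least 1 array above the pooled median (79.66) were tested with limma 3.58.1 in R 4.3.3 (lmFit, eBayes; Benjamini-Hochberg at 0.05).

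The fit had 4 means, disease-free and G93A-SOD1 at each age, and 2 residual degrees of freedom (prior 5.13, prior SD 0.12). The fit of WT-SOD1 against nontransgenic cord used the 4 disease-free arrays and an age term, with 1 residual degree of freedom and a pooled spread of 0.19. No group has a replicate array. The p-values of the fit with 4 means therefore rest on the spread between nontransgenic and WT-SOD1 arrays of an age. Those of the WT-SOD1 fit rest on how far the genotype difference varied between the ages, as a spread pooled over all probe sets. The number of arrays limits the precision.

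Gene symbols came from the platform annotation: 10833 probe sets had 1 symbol, 396 several and 1193 none. All 61 members matched RefSeq by Entrez identifier. The representative probe sets of 10 tested members (those of Psma3, Psmb4, Psmb5, Psmb7, Psmc3, Psmd12, Psmd9, Ube2c, Ube2e1 and Ube2k) have a suffix that marks possible cross-hybridisation. Named with values are the catalytic and interferon-linked subunits, the highest and lowest member of each role at 110 days, the 3 highest and 3 lowest in each other comparison, and genes whose probe sets differ in sign. Psma3, Psmb3, Psmc4, Psmd10, Psme4, Ube2g1 and the level of Ube2n at 110 days fall outside the rule: they were picked with their values known. The members, lists and alternatives were chosen with earlier results of these data known. The fits were tested on simulated data with changes larger than any difference of the members. That test does not show whether differences of the size reported here would be found.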

Additional observations from a re-analysis of the deposited data

How the results depend on the processing

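The alternatives were 2 scalings, another floor, 2 filters, leaving out each disease-free array, terms for spike-in signal and WT-SOD1, and the mean of all probe sets of a gene. The median difference of the members ran from -0.15 to -0.00 at 110 days (-0.09 as reported) and from -0.13 to -0.03 at 75 days (-0.09). It ran from 0.00 to 0.12 for the change (0.04), from -0.01 to 0.11 for age (0.04) and from -0.05 to -0.01 for WT-SOD1 (-0.03). Each move was smaller than 0.12, the typical spread of the disease-free arrays for a gene. That spread is larger than the medians themselves, so it does not show that they are stable. The count of members past the test, 0 in each comparison, stayed 0 for age and for WT-SOD1. Leaving out 1 disease-free array gave between 0 and 3 at 110 days, between 0 and 4 at 75 days and between 0 and 1 for the change; the term for spike-in signal gave 1 for the change (Psme3). That term alters only the error of the change and not its estimate, and it leaves fewer residual degrees of freedom. The other nonzero counts came from leaving out an array at 110 days. The error of such a fit rests on the spread between the 2 disease-free arrays at 75 days alone, so these counts do not show that members differ. Over the alternatives, the count of all probe sets past the test ran from 42 to 591 at 110 days (102 as reported), from 0 to 116 at 75 days (0), from 2 to 135 for the change (28), from 0 to 17 for age (1) and from 0 to 6 for WT-SOD1 (7). Of 604 values of named members, 584 kept direction and call, 15 passed the test only under the alternative and 5 turned sign at 110 days, where a value that rounds to 0.00 counts as having no direction (Psmb7 at 75 days, -0.00, ran from -0.04 to 0.08): Psmc6 (0.04 with quantile normalization, 0.09 without the nontransgenic array at 110 days), Psmd11 (0.31) and Ube2v1 (0.01) without that array, and Ube2s (-0.02 with a WT-SOD1 term). Leaving out single arrays gave -0.13 to 0.09 for Psmc6, -0.63 to 0.31 for Psmd11 and -0.28 to 0.01 for Ube2v1. No paired analysis was possible because each group has 1 array and the labels give no replicate numbers. Low signal limits 7 members, which had no array above the pooled median and were not tested.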
